A study of Mus musculus with 2 samples.

Results

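Lin28a, Lin28b, Trim71, Igf2bp1, Igf2bp2, Igf2bp3, Hmga1 and Hmga2 are growth genes of the fetus, described here in the face of the mouse embryo. They were taken by gene symbol, by a rule that uses no measured value, though earlier results of these data were known when they were chosen. All 8 were found among the 55536 genes of the GENCODE M21 gene tables (release M21 of the mouse gene annotation). PolyA plus RNA-seq was made from the embryonic facial prominence, the tissue that forms the face, of B6NCrl embryos aged 12.5 days. The tissue of 120 embryos was pooled for replicate 1 and that of 88 for replicate 2, with sexes mixed and no treatment or introduced allele stated in the labels. Each library was made from 10 ng of RNA by oligo-dT priming and Nextera tagmentation, with ERCC spike-in RNAs added. The 2 libraries form 1 group, so the data give levels, transcript makeup and the spread between pools, with no contrast between conditions.

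LIN28A and LIN28B are RNA-binding proteins that block the maturation of let-7 microRNAs in early embryos, and TRIM71, a TRIM-NHL protein, also acts in early embryos and is itself a let-7 target. The IGF2BP proteins bind messenger RNAs such as Igf2, H19 and Actb and are best known from fetal tissue and tumours. The HMGA proteins bend AT-rich DNA and act in chromatin of dividing, undifferentiated cells. Mature let-7 silences messages by pairing of its seed, the bases near its 5′ end, with the 3′ UTR, and levels of many of these messages fall as let-7 rises late in development.

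The let-7 sequences are shown because the genes are tied together by this microRNA in the literature. In the RefSeq table for GRCm38.p6, 11 distinct let-7 and miR-98 5′ sequences were listed, and 10 of them carried the same seed, bases 2 to 8, GAGGUAG. The seed is in capitals in 3 sequences that share it and in let-7j, which differs.
let-7a: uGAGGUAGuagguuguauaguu
let-7g: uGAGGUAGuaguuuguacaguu
miR-98: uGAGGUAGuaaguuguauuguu
let-7j: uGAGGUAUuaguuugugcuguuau

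The 3′ UTR of the leading coding transcript of each gene was searched, on the transcript strand, for the 7-base match CTACCTC and for the 8-base match CTACCTCA, which contains it. All 8 genes held at least 1 7-base match, with 21 matches in all, and 7 of the 8 held the 8-base match. Among 20825 3′ UTRs of protein-coding genes, 7.71% held a 7-base match and 2.63% an 8-base match. These genes are known as let-7 targets, so this count is not independent of how they were chosen. The match nearest to the stop codon of each gene is given with the bases upstream of it, capitals marking the match.
Lin28a: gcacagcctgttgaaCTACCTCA
Lin28b: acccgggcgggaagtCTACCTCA
Trim71: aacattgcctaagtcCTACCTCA
Igf2bp1: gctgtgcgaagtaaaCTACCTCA
Igf2bp2: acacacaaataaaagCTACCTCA
Igf2bp3: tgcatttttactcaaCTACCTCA
Hmga1: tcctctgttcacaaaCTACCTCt
Hmga2: gccgacattcaatttCTACCTCA

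On mm10, these 7-base matches lie in 3′ UTR sequence at chr4:134005190-134005196 (Lin28a), chr10:45381023-45381029 (Lin28b), chr9:114512473-114512479 (Trim71) and chr11:95961779-95961785 (Igf2bp1), all on the minus strand. Those of Igf2bp2 at chr16:22059474-22059480, Igf2bp3 at chr6:49086788-49086794 and Hmga2 at chr10:120364225-120364231 are also on the minus strand, and that of Hmga1 at chr17:27563292-27563298 is on the plus strand. The matches of Hmga2 and Lin28b lie close to the coding sequence, starting at bases 21 and 36 of the 3′ UTR. In the lines above Hmga1 alone lacks the final A, and its 3′ UTR held no 8-base match.

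The number of matches separated the genes. Lin28b, Trim71, Igf2bp1 and Hmga2 each held 4 matches, Lin28a held 2, and Igf2bp2, Igf2bp3 and Hmga1 held 1 each. Only 9 of the 20825 3′ UTRs, or 0.0432%, held 4 or more, and 4 of these 9 belonged to the genes described here. All 4 matches of Trim71 were of the 8-base kind, and sites 3 and 4 started 26 bases apart.
Trim71 site 3: tttagtatggattttCTACCTCA
Trim71 site 4: ttggcaaaaagttgtCTACCTCA

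Longer UTRs hold more matches, so each gene was set beside 3′ UTRs within 25% of its length. Each such set included the gene itself and any other of the 8 genes in that length range. The Hmga2 3′ UTR, of 2977 bases, held as many matches as only 0.0838% of 2388 UTRs of similar length. The shares were 0.310% for Lin28b (4445 bases), 0.375% for Igf2bp1 (6337 bases), 0.670% for Trim71 (5512 bases) and 1.84% for Lin28a (2775 bases). The smallest shares rest on few UTRs, partly the genes described here. For Igf2bp1 they were 2 of 533, Igf2bp1 itself and Trim71. By contrast, 1 match was held by 11.3% of UTRs as long as that of Igf2bp2 (1784 bases), 12.4% for Igf2bp3 (2119 bases) and 7.77% for Hmga1 (1183 bases). The reverse complement, GAGGTAG, occurred in 6.31% of all 3′ UTRs and in 1 place among the 8 genes, in Hmga2. A match is a description of these letters, and binding was not measured.

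**Figure D1:**
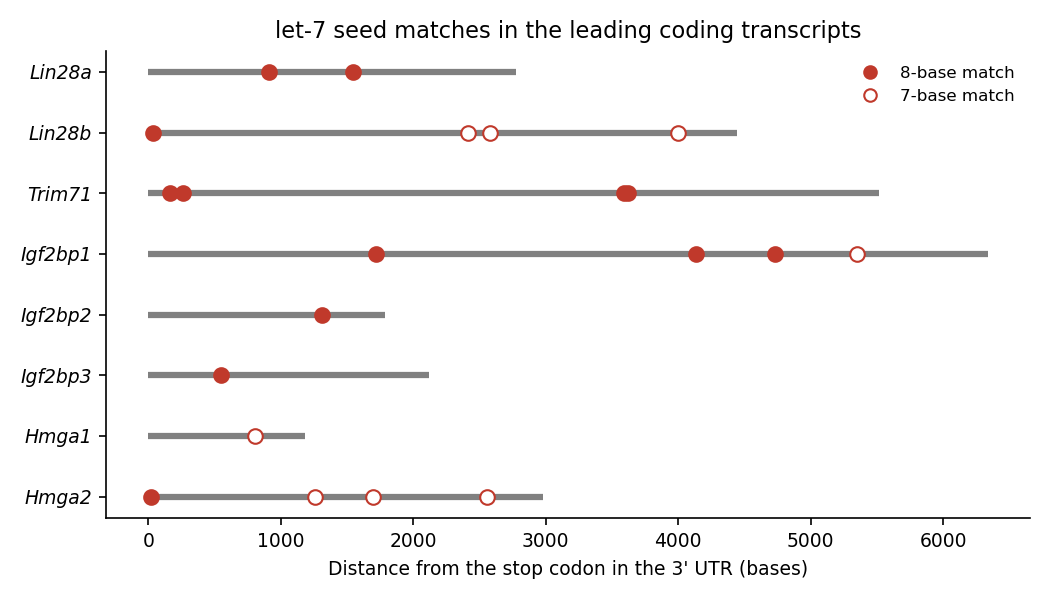
Positions of let-7 seed matches (circles) along the 3′ UTR (grey bars) of the leading coding transcript of each gene, as bases from the stop codon. Filled circles are 8-base and open circles 7-base matches; Lin28b, Trim71, Igf2bp1 and Hmga2 carry 4 each, and the Hmga1 UTR carries 1 open circle.

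Replicate 1 had 28705073 and replicate 2 had 41092194 expected counts in all, an expected count being an estimated number of reads that need not be whole. The tissue label was checked against 12 marker lists. All 7 facial mesenchyme markers and all 6 epithelium markers were detected, and summed TPM (transcript abundance corrected for length and scaled to the same total in each library) of the mesenchyme list was 892.73 and 912.49. Markers of other cells were present too, with embryonic erythroid genes at 9704.80 and 8740.26 summed TPM. Summed levels of the 3 lens markers were 176.99 and 420.08, those of 4 melanoblast markers 29.25 and 53.25, and those of 6 neuron markers 462.56 and 358.09. The summed levels of the other lists differed by at most 1.21-fold between libraries, and no marker was at 0 in both libraries. Sums can hide shifts of single genes. In the mesenchyme list Alx1 had 102.62 TPM in replicate 1 and 149.87 in replicate 2, while Dlx5 had 80.75 and 54.78. In such bulk tissue, fewer cells of a type and less RNA per cell cannot be told apart.

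The 8 genes fell into 2 ranges of level. Hmga1, Hmga2 and the 3 Igf2bp genes lay between 69.70 and 193.92 TPM in both libraries, while Lin28b stood near 5 TPM and Trim71 and Lin28a stayed below 1. In all, 6 of 8 reached at least 1 TPM in both libraries, against 60.7% of 22028 protein-coding genes. The median level of the 8 was 73.3 TPM, and that of all protein-coding genes 4.79 TPM. The members had been chosen with results of these data known, so this contrast describes them only.

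**Figure D2:**
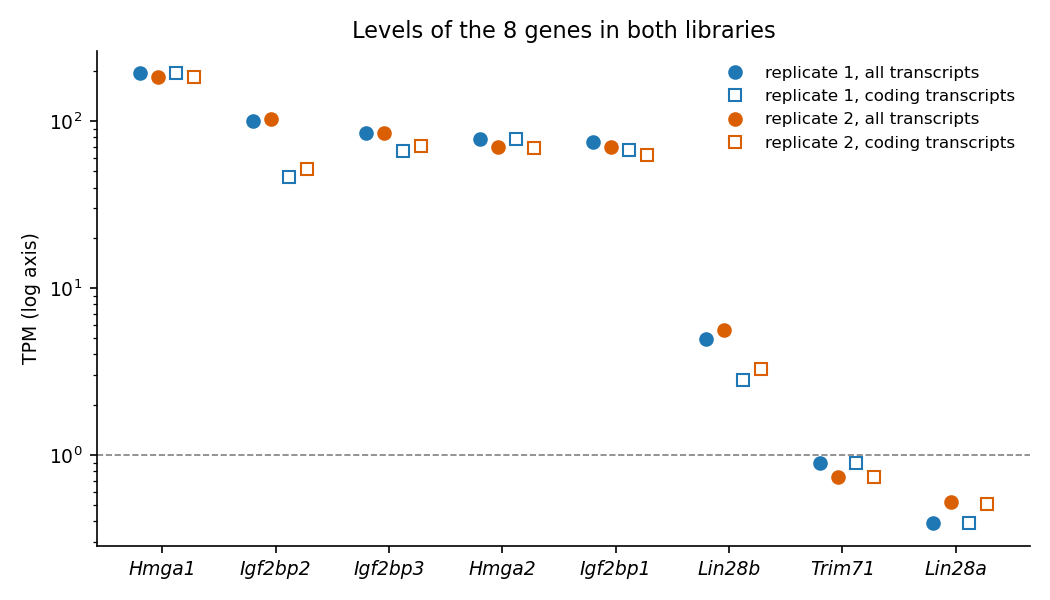
TPM (log axis) of the 8 genes in replicate 1 (blue) and replicate 2 (orange), with filled circles for all transcripts of a gene and open squares for its coding transcripts; the dashed line is 1 TPM. The 5 genes on the left sit between 69.70 and 193.92 TPM when all transcripts are counted, and the squares of Igf2bp2 fall to 46.28 and 52.02.

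Lin28a, the family member best known from pluripotent cells (ENSMUSG00000050966.9, chr4:134003330-134018841, minus strand), had 0.39 TPM in replicate 1 and 0.52 in replicate 2 (mean 0.455 ± 0.0919 SD, n = 2). These levels rest on 13 and 35.58 expected counts. Both libraries were low, and the gene ranked at percentile 33.9 of protein-coding genes. The ratio of its counts, scaled to summed gene counts, was 1.917 in replicate 2 over replicate 1, with an exact 95% interval of 1.004 to 3.985 that covers counting error only. The deposited mean transcript length was 1902 bases in replicate 1 and 2727 in replicate 2, which makes the TPM ratio smaller than the count ratio. The deposited posterior mean estimate put the gene at 0.935 TPM, above the maximum-likelihood value used here.

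Lin28b, its paralog (ENSMUSG00000063804.8, chr10:45376620-45486395, minus strand), had 4.92 and 5.60 TPM (mean 5.26 ± 0.481 SD, n = 2) from 339 and 555 expected counts. Each of its libraries exceeded both Lin28a libraries, and Lin28b made up 92.1 ± 0.815% (SD, n = 2) of the summed Lin28 TPM. It lay at percentile 50.9 of protein-coding genes, close to the middle. Its scaled count ratio was 1.147, with an interval of 1.000 to 1.316.

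Trim71, which encodes an RNA-binding ubiquitin ligase of the TRIM-NHL family (ENSMUSG00000079259.2, chr9:114507133-114564369, minus strand), had 0.89 and 0.74 TPM (mean 0.815 ± 0.106 SD, n = 2) from 151 and 178 expected counts. Neither library reached 1 TPM, though the counts, over a transcript of 9332 bases, were far above those of Lin28a. Its count ratio of 0.827 had an interval of 0.661 to 1.032, so a difference between the pools was not detectable at this depth.

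Igf2bp1 (ENSMUSG00000013415.9, chr11:95957163-96005940, minus strand), which encodes a protein that stabilises and localises messages such as that of beta-actin, had 74.88 and 70.07 TPM (mean 72.5 ± 3.40 SD, n = 2). Its counts were 10328 and 13759, the most of the 8 genes. Igf2bp2 (ENSMUSG00000033581.17, chr16:22059009-22163299, minus strand), the paralog most widely kept in adult tissue, had 100.15 and 103.39 TPM (mean 101.8 ± 2.29 SD, n = 2). Both Igf2bp2 libraries exceeded all libraries of its paralogs. Igf2bp3 (ENSMUSG00000029814.10, chr6:49085223-49214957, minus strand), often described as an oncofetal form, had 85.34 and 85.29 TPM (mean 85.3 ± 0.0354 SD, n = 2) from 5619 and 8377 counts.

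The 3 paralogs shared the family level rather evenly. Igf2bp1, Igf2bp2 and Igf2bp3 made up 27.9 ± 1.19%, 39.2 ± 1.06% and 32.9 ± 0.131% of the summed Igf2bp TPM (SD, n = 2). That sum was 260.37 in replicate 1 and 258.75 in replicate 2. Mean TPM of Igf2bp2 was 1.19-fold that of Igf2bp3, and the libraries of the 3 paralogs did not overlap.

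Hmga1, which encodes an AT-hook protein of chromatin (ENSMUSG00000046711.16, chr17:27556497-27563674, plus strand), had 193.92 and 184.52 TPM (mean 189.2 ± 6.65 SD, n = 2) from 5441 and 7511 counts. It was the highest of the 8 in each library and ranked 748 among protein-coding genes. Hmga2, its paralog and a known regulator of body size (ENSMUSG00000056758.14, chr10:120361275-120476469, minus strand), had 78.67 and 69.70 TPM (mean 74.2 ± 6.34 SD, n = 2) from 5236 and 6580 counts. Hmga1 supplied 71.9 ± 1.02% of the summed Hmga TPM (SD, n = 2). The Hmga sum, 263.4 ± 13.0 TPM, and the Igf2bp sum, 259.6 ± 1.15 TPM, overlapped between libraries.

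In order of mean TPM the genes ran Hmga1, Igf2bp2, Igf2bp3, Hmga2, Igf2bp1, Lin28b, Trim71, Lin28a. Hmga2 and Igf2bp1 overlapped between libraries, so their places cannot be separated. All other neighbours were apart in both libraries. The widest step was the 13.8-fold drop from Igf2bp1 to Lin28b, followed by 6.45-fold from Lin28b to Trim71. The step from Hmga1 to Igf2bp2 was 1.86-fold and that from Trim71 to Lin28a 1.79-fold. On the deposited posterior mean estimate, Lin28a stood above Trim71, at 0.935 and 0.790 TPM, so the order of these 2 genes rests on the estimate used.

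Between the pools, 0 of the 8 genes differed by 2-fold or more, against 0.243% of 13585 protein-coding genes with a mean of at least 1 TPM. With a pseudocount of 1 TPM, log2 ratios of replicate 2 over replicate 1 ran from -0.17 for Hmga2 to 0.16 for Lin28b, and 3 genes were higher and 5 lower in replicate 2 (2 higher after scaling on the spike-ins, 4 with counts scaled to summed gene counts). The median absolute log2 ratio of expressed protein-coding genes was 0.09 and the 95th percentile 0.39. The 6 genes with at least 1 TPM in both libraries lay inside that range. Lin28a and Trim71 were below the 1 TPM limit of that background, and the pseudocount pulls their ratios towards 0. The scaled count ratio of Lin28a was 1.917, with an interval of 1.004 to 3.985 that extends past 2-fold. These ratios set 1 library against 1 library and carry no p-value.

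Counting error was smallest for the abundant genes. The Hmga2 count ratio of 0.880 had an interval of 0.849 to 0.913, and that of Igf2bp1, 0.933, had an interval of 0.909 to 0.957. Both intervals lay below 1, whereas that of Hmga1, 0.934 to 1.001, reached it. Igf2bp2 and Igf2bp3 had intervals just above 1, at 1.002 to 1.072 and 1.009 to 1.080. The summed lens, melanoblast and neuron markers moved by 2.37-fold, 1.82-fold and 0.774-fold between the same libraries, and their part in these ratios was not tested. Scaling on the spike-ins moved the median of expressed genes from 0.00 to -0.13 on the log2 scale, and on that scale Igf2bp2 changed sign, from 0.05 to -0.09.

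**Figure D3:**
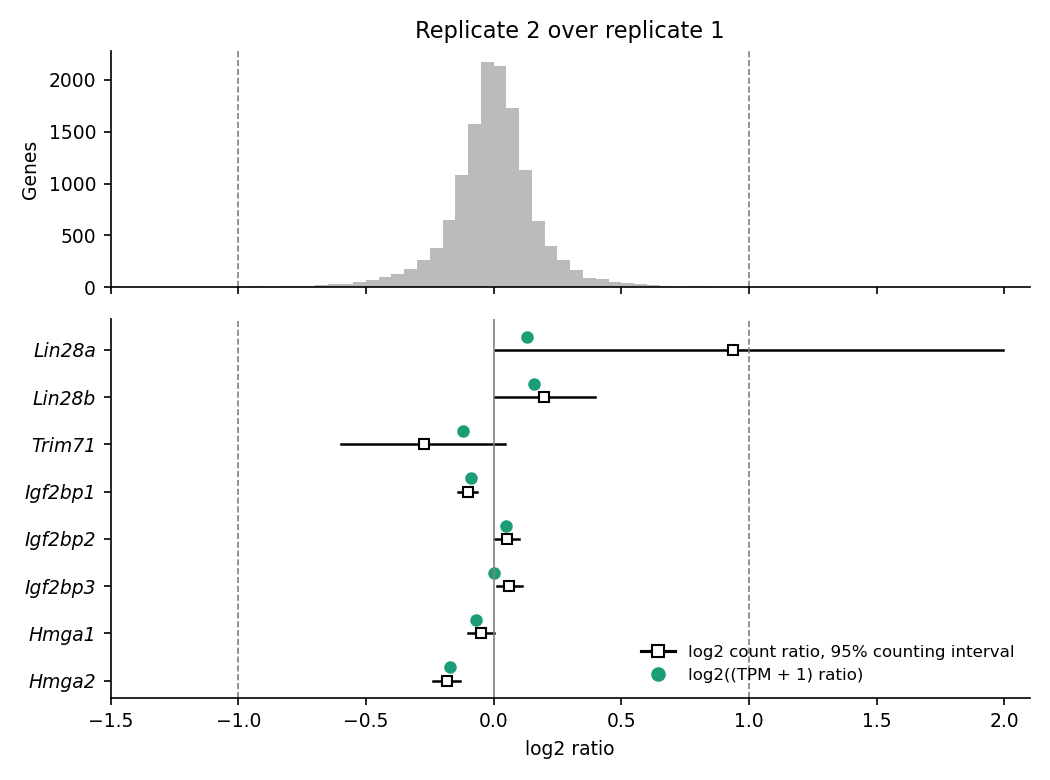
Upper panel, number of protein-coding genes with a mean of at least 1 TPM by log2 ratio of TPM + 1, replicate 2 to replicate 1, in bins of 0.05, with genes beyond 1.5 counted in the end bins. Lower panel, the same ratio for the 8 genes (green circles) and their scaled log2 count ratio (squares) with its 95% counting interval; dashed lines mark 2-fold, and the Lin28a interval, from 13 and 35.58 counts, is the widest.

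The deposited transcript tables divide each gene among its annotated transcripts. Trim71 had a single annotated transcript, so the annotation left no split to measure. Hmga2 had 3 annotated transcripts, of which Hmga2-201 carried 99.78% and 99.27% of its TPM. Igf2bp1-201, the coding form, carried 89.56% and 89.92%, and the non-coding Igf2bp1-202 carried 9.05% and 8.42%. The non-coding Igf2bp1 transcripts together took only 0.895% and 0.865% of the gene's counts, being short.

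Igf2bp2 was split most evenly between coding and non-coding forms. Its coding transcript Igf2bp2-201 carried 41.45% and 45.26% of the gene's TPM, and the annotated retained-intron transcript Igf2bp2-207 carried 37.36% and 35.15%. Igf2bp2-205, another retained-intron form, carried 7.46% and 6.60%, and the shorter coding form Igf2bp2-202 carried 4.75% and 5.06%. Retained-intron transcripts in all held 50.5 ± 2.67% of Igf2bp2 TPM (SD, n = 2), coding transcripts 48.3 ± 2.91%. Which class led differed between libraries, with coding transcripts at 46.2% in replicate 1 and 50.3% in replicate 2. Of the gene's counts, coding transcripts took 54.8% and 59.0% and retained-intron transcripts 45.1% and 40.9%. The coding total was 46.28 and 52.02 TPM, below the coding totals of Igf2bp1 (67.06 and 63.01) and Igf2bp3 (65.92 and 70.65) in both libraries. Igf2bp2 was therefore the highest of the family by gene level and the lowest by coding transcripts, an alternative chosen after the values were seen. Of its coding TPM, 89.8 ± 0.164% belonged to the 592-codon form and 10.2 ± 0.164% to the 524-codon form.

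Igf2bp3-201, coding, carried 77.25% and 82.84% of Igf2bp3 TPM, and the non-coding Igf2bp3-203 carried 14.06% and 8.59%. Of the gene's counts, the coding form took 91.8% and 93.6%. Igf2bp3-203 stood at 9.66 ± 3.31 TPM and Igf2bp3-201 at 68.3 ± 3.34 (SD, n = 2), so nearly equal gene totals were split differently in the libraries. Lin28b-201, its only coding transcript, carried 57.17% and 58.31% of Lin28b TPM. The processed transcripts Lin28b-203 (32.33% and 30.77%) and Lin28b-202 (10.49% and 10.92%) held the rest, though the coding form took 81.1% and 81.5% of the counts. Lin28a was too shallow for a split: Lin28a-201 carried 47.06% and 74.30%, and Lin28a-204 carried 52.94% and 25.70% on 1.45 and 1.32 counts.

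**Figure D4:**
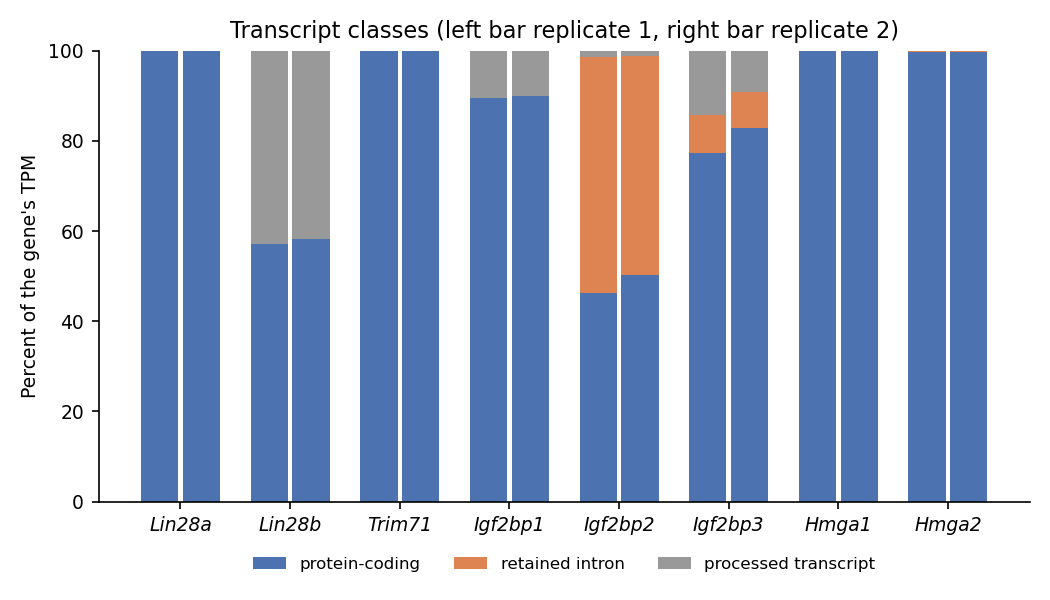
Percent of each gene's TPM in protein-coding, retained-intron and processed transcripts of the M21 annotation, replicate 1 in the left and replicate 2 in the right bar. Retained-intron forms make up 52.4% and 48.6% of Igf2bp2, and processed transcripts 42.9% and 41.7% of Lin28b. For Lin28a, Trim71 and Hmga1 only coding transcripts are annotated, so their bars could not show another class.

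Hmga1 was spread over many coding transcripts that differ mostly outside the coding sequence. Hmga1-216 led with 49.19% and 46.95%, followed by Hmga1-201 with 13.50% and 21.71%. Hmga1-204 (9.49% and 7.62%), Hmga1-211 (9.48% and 9.10%), Hmga1-203 (8.70% and 4.65%) and Hmga1-206 (1.92% and 5.30%) passed 5% in at least 1 library. The protein comes in a longer and a shorter splice form, HMGA1a and HMGA1b, so the transcripts were also grouped by coding length. Coding sequences of 107 codons held 51.9% and 56.3% of Hmga1 TPM, those of 96 codons, 11 fewer, held 38.7% and 39.0%, and those of 106 codons held 8.70% and 4.66%.

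Some of the genes share sequence with others. Hmga1b, a separate near-identical gene at chr11:120762794-120764419, had 3.26 and 4.51 TPM, and 76.0% of the 100-base windows of Hmga1-216 also occurred in it. The fractional counts of Hmga1 and Hmga1b show that reads were divided between features, so the Hmga1b level is uncertain. Its level was far below the 193.92 and 184.52 TPM of Hmga1 in both libraries.

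Igf2bp3 shares 33.7% of its windows with Malsu1, a mitochondrial ribosome assembly gene on the opposite strand, at 57.20 and 60.14 TPM. No source used here gives the strand setting of the counting, so reads from the shared stretch cannot be assigned to either gene with certainty. The other overlaps were small: 1.22% of Hmga2-201 windows with the antisense 1700006J14Rik (1.83 and 2.26 TPM), 0.444% of Trim71-201 with C130032M10Rik (0.34 and 0.47 TPM) and 0.206% of Lin28a-201 with Gm13061 (0.00 and 0.10 TPM). AI413582, opposite Hmga1 at 14.32 and 15.85 TPM, shared 0.190% of windows. The leading transcripts of Lin28b, Igf2bp1 and Igf2bp2 shared no window with another gene. Antisense genes that overlap a member without sharing a window with its leading transcript were low: Gm29202 at Igf2bp1 had 1.85 and 2.96 TPM, 9230105E05Rik at Hmga2 0.55 and 0.44 TPM, and Gm49774 at Hmga1 0.16 and 0.21 TPM.

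The same reads were also quantified on the older GENCODE release M4. None of the 8 genes moved by 2-fold or more between releases, against 2.08% of 13580 protein-coding genes, whose median log2 shift was -0.06. Lin28b moved most, from 3.11 and 3.57 TPM in M4 to 4.92 and 5.60 in M21, or 1.58-fold and 1.57-fold. In M4 its coding transcript held the whole gene, and the mean transcript length was 5402 bases in place of 3840 and 3892. The M4 counts of Lin28b, 288 and 469, were below the M21 counts. Igf2bp3 had 75.26 and 79.38 TPM in M4 beside 85.34 and 85.29 in M21. The libraries of Igf2bp3, Hmga2 and Igf2bp1 overlapped in M4, so their order in M21 rests on the release. For the other 6 genes, the log2 shift lay between -0.13 (Hmga1, replicate 2) and -0.01 (Lin28a, replicate 1).

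Mature let-7 is shorter than the RNA sizes that the labels give for the library and was not measured. All 12 let-7 and miR-98 hairpin genes of the M21 table had 0 counts in both libraries. Of 13 hairpin loci in the RefSeq table, 11 lie inside a gene of the same strand, and the levels of these hosts can be read. Huwe1, which hosts let-7f-2 and miR-98, had 57.01 and 58.21 TPM, Mir99ahg, which hosts let-7c-1, had 53.94 and 52.97, and Spaca6, around let-7e, had 47.60 and 44.41. Wdr82, around let-7g, had 25.58 and 24.10 TPM. The hosts of the other loci were lower, with D630033A02Rik (let-7i) at 5.82 and 6.21, 6720427I07Rik (let-7d, let-7f-1 and let-7a-1) at 2.65 and 2.29, and Lncppara (let-7c-2 and let-7b) at 0.29 and 0.19. A host level is not a level of the mature microRNA.

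The genes that process let-7 or act with it were present throughout. All 18 of 18 were detected, against 60.7% of all protein-coding genes, a share that also applies to the lists below. Their median was 44.4 TPM (25.5 on release M4), with a median log2 ratio between libraries of -0.04. The highest were Hnrnpa1, an RNA-binding protein that interferes with let-7a processing (958.8 ± 18.9 TPM), Tut4, the uridylyl transferase that LIN28A recruits to pre-let-7 (111.9 ± 3.80), and Tarbp2, a DICER partner (91.3 ± 3.56). The lowest were the Argonautes Ago1 (6.03 ± 0.785) and Ago4 (2.85 ± 0.530). Tut4 stood far above Lin28a and Lin28b in each library, at 114.58 and 109.20 TPM.

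Among other known let-7 targets, 19 of 19 were detected, with a median of 38.2 TPM. Cyclin D2, Ccnd2, led at 687.3 ± 32.1 TPM, followed by cyclin D1, Ccnd1 (112.6 ± 13.3). On release M4, Ccnd2 was at 167.55 and 173.35 TPM and Ccnd1 at 106.16 and 125.63, so the lead of Ccnd2 was smaller there. The lowest were Arid3a, a DNA-binding factor (4.53 ± 0.983), and the nuclear receptor gene Nr6a1 (1.31 ± 0.375). In this list 12 of 19 3′ UTRs held the 7-base match, with 24 matches in all. Among all 3′ UTRs, not matched for length, the share was 7.71%, and the list was made of known let-7 targets. Nr6a1, the lowest, held 8, while Ccnd1 and Ccnd2 held none in the leading transcript.

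Partners and bound messages of the IGF2BP proteins were abundant, with 12 of 12 detected and a median of 322.3 TPM (201.9 on release M4). Actb was at 11240 ± 388.1 TPM, the highest protein-coding gene on release M21, Ybx1 at 850.7 ± 27.2 and Hnrnpu at 655.1 ± 41.7. These levels depended on the release: on M4, Actb had 5574.57 and 5686.86 TPM and Hnrnpu 139.19 and 155.66, below Igf2, whereas Ybx1 had 884.37 and 925.67. Igf2, the fetal growth factor, was measured at 567.29 and 547.71 TPM, and H19, the imprinted non-coding RNA beside it, at 406.20 and 373.84. The lowest of this list were the helicase gene Dhx9 (36.6 ± 0.552) and the adhesion receptor gene Cd44 (6.35 ± 0.0849). Igf2 thus stood above the summed level of all 3 Igf2bp genes in both libraries.

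IGF2BP proteins are also described as readers of m6A, a methyl mark on messenger RNA, and 10 of 10 genes of that machinery were detected, with a median of 50.1 TPM. The writer subunit gene Wtap (112.6 ± 2.84 TPM), the reader gene Ythdf2 (106.4 ± 4.88) and the eraser gene Fto (80.2 ± 3.45) were highest. The writer gene Mettl14 (27.3 ± 1.08) and the reader gene Ythdc2 (6.93 ± 0.453) were lowest. Igf2bp1, Igf2bp2 and Igf2bp3 lay within the range of these readers.

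Other high-mobility-group chromatin genes, 7 of 7 detected, had a median of 359.8 TPM. Hmgn2 (2300 ± 83.3), Hmgb1 (1295 ± 125.9) and Hmgn1 (667.5 ± 33.9) were the highest, and Hmgb3 (359.8 ± 17.4), Hmgb2 (340.1 ± 21.6) and Hmgn3 (157.2 ± 12.1) followed. Hmga1 lay between Hmgb2 and Hmgn3, while Hmga2 lay between Hmgn3 and Hmgn5 (19.7 ± 1.43). In TPM all 7 were higher in replicate 2, with log2 ratios of 0.07 to 0.20, but 3 of 7 were higher after scaling on the spike-ins, with ratios of -0.06 to 0.06. Hmga1 and Hmga2 were lower in replicate 2 on both scales, at -0.07 and -0.17 in TPM and at -0.21 and -0.31 on the spike-in scale.

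Relatives by protein domain were at higher levels than Lin28a, Lin28b and Trim71. Of the cold-shock domain genes, which share a domain with LIN28, 6 of 6 were detected, among them Ybx1 at 850.7 ± 27.2 TPM, Carhsp1 at 93.2 ± 1.94, Ybx3 at 30.4 ± 1.68, Csdc2 at 11.2 ± 1.73 and Ybx2 at 8.68 ± 0.361. Of the TRIM-NHL genes related to Trim71, 3 of 3 were detected, with Trim32 at 52.0 ± 1.47, Trim3 at 35.2 ± 1.16 and Trim2 at 30.3 ± 0.700. Each of the relatives named here exceeded Lin28b, the highest of the 3, in both libraries.

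Pluripotency and germline markers, which accompany Lin28a and Trim71 in early embryos, were low. Of these, 1 of 10 was detected: Sall4, a zinc-finger factor also used in limb and other organ buds, at 2.42 ± 0.170 TPM. Ddx4 (0.605 ± 0.163) and Nanog (0.360 ± 0.141) came next, and Pou5f1 (0.0350 ± 0.00707) and Zfp42 (0.0250 ± 0.00707) were lowest. The median of the list was 0.237 TPM, below Lin28a and Trim71. Across the 9 lists of pathway genes, 78 of 89 measured genes were detected, against 60.7% of protein-coding genes. The lists were chosen with earlier results of these data known.

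**Figure D5:**
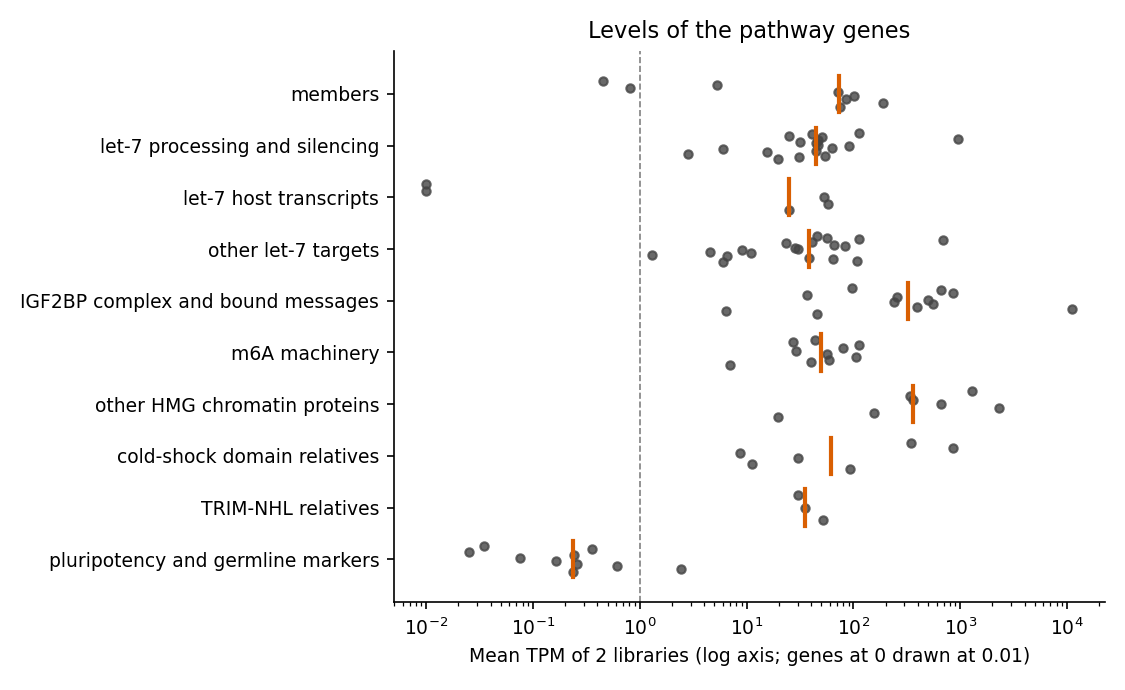
Mean TPM of the 2 libraries (log axis) for the 8 genes (top row, named members) and the 9 pathway lists, 1 point per gene, with the list median as an orange bar and 1 TPM as a dashed line. Genes at 0, the 2 let-7 hairpin genes among the host transcripts, are drawn at 0.01; the pluripotency and germline markers have a median of 0.237 TPM, and the other lists have medians of 24.8 TPM or more.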

How the data were processed

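Both libraries came with gene and transcript tables on mm10 for GENCODE releases M21 and M4, the release of each table being given in the deposited file descriptions. Per the file headers, the values are the authors' expected counts (estimated reads per feature), TPM as maximum-likelihood and posterior mean estimates, FPKM, and the percent of a gene's abundance per transcript. The sources used here name no aligner, quantifier or strand setting. Deposited TPM gave levels, and rounded expected counts gave exact conditional (Clopper-Pearson) 95% intervals of count ratios. Reads were counted without molecular identifiers, so intervals cover counting error only.

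Genes with at least 1 TPM in both libraries were called detected. Replicates were compared as log2((TPM + 1) ratio), which understates differences of low genes, with 2-fold as the threshold. With 1 group of 2 libraries no p-value was computed. Gene lists came from general knowledge, and the members and lists were chosen with earlier results of these data known. Named are all 8 members, their transcripts above 5% in either library, overlapping or near-identical genes and, per list, the 3 highest, the 2 lowest and any with an absolute log2 ratio of at least 0.5 at 1 TPM or more, or all genes of lists of up to 7. Let-7 hosts were added by position, and a few other genes were named after their values were seen. Some genes covered by this rule are not reported here. From the list of let-7 hosts, Mirlet7bhg was not matched.

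3′ UTRs were cut from the M21 transcripts. Each gene's coding transcript with a stop codon and the highest mean TPM was used. Windows of 100 bases, the length minus effective length of the tables plus 1, were compared with all other M21 transcripts on both strands. Versions were Python 3.11.15, pandas 2.3.3, scipy 1.17.1, R 4.3.3, edgeR 4.0.16 (TMM factors) and DESeq2 1.42.0 (size factors). The count ratio and its interval were tested on simulated counts that held counting error only, with no spread between pools. Genes with few counts, such as Lin28a, were left out, and the TPM ratio was not tested in this way. Alternatives were another unit, estimate, pseudocount, scaling, filter, annotation release, UTR and match, and each library left out.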

Additional observations from a re-analysis of the deposited data

How the results depend on the processing

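None of the 8 genes passed 2-fold between libraries or releases under the alternatives run for those comparisons. All of these ratios hold a pseudocount, which pulls those of Lin28a and Trim71, both below 1 TPM, towards 0. For these genes the alternatives therefore say little. Without a pseudocount the scaled count ratio of Lin28a was 1.917, with an interval of 1.004 to 3.985 that extends past 2-fold. The median level of the 8 genes was 73.3 TPM, 46.9 as FPKM and 57.1 TPM with coding transcripts only, and in that last setting 5 of 8 genes kept their place in the order. That setting was chosen after seeing the data, and the cause of the FPKM shift is its different scale. Members detected numbered 6, but 7 with a minimum of 0.5 TPM and 5 with a minimum of 5 TPM. The posterior mean raised Lin28a to 0.935 TPM, above Trim71 at 0.790 TPM, and 6 of 8 genes kept their place in the order. Release M4 lowered Lin28b to 3.34 TPM. The leading transcript differed in M4 for Hmga1 alone, and without replicate 2 for Lin28a alone. The 8-base match left 13 of 21 let-7 matches. At 13 and 35.58 counts, Lin28a allows no statement on its isoforms. No paired analysis was possible because there is 1 group. The planned comparison of proteins within families was not run.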
